A study of Mus musculus with 8 samples.

Results

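The genes described here encode the keratin-associated proteins of hair. They were taken as every gene whose single symbol in the platform annotation began with Krtap and a digit, with the probe set of the highest mean used for each gene. This gave 51 genes of the 22180 measured, in 24 numbered subfamilies of which 14 had 1 member on the array. Krtap5-1 had 2 probe sets, and each of the other members had 1. A further 10 Krtap probe sets named several genes each and were left out of the members.

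Expression was measured in dorsal skin of male mice on 8 Affymetrix arrays, 1 array for each label. Wild-type mice (WT) were C57BL/6, and knockout mice (KO) were B6.Cg-Il22ra1tm1.1Koll/J, which carry an altered allele of the alpha chain of the interleukin-22 receptor. The arrays without imiquimod were WT_CTRL, KO_CTRL, KO_CTRL-B and KO_Allo, and the arrays with imiquimod (IMQ) were WT_IMQ, KO_IMQ, KO_IMQ_B and KO_IMQ_Allo. Imiquimod, a Toll-like receptor agonist used to raise psoriasis-like inflammation, was applied as 83.3 mg of 5% cream on the back and ears each day from day 1 to day 7. Vehicle cream or cream with alloferon, an insect-derived peptide (Allo in the labels), followed after 6 hours. The study states 4 mice per group. Whether an array held 1 mouse or pooled RNA, the age of the mice, what the controls received, whether the allele was deleted in all cells and what the letter B stands for were not stated in the labels.

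Keratin-associated proteins fill the space between the keratin filaments of the hair shaft and are joined to the filaments and to each other by disulfide bonds. Their genes are transcribed in the shaft-forming cells above the hair matrix, after the hair keratins have begun to be made, and so they mark growing (anagen) follicles. The family is sorted by protein composition into high glycine-tyrosine, high sulfur and ultra-high sulfur classes, and the genes lie in dense clusters. By subfamily number, 15 members here were high glycine-tyrosine (Krtap6, 7, 8, 19, 20, 21 and 22), 14 high sulfur (Krtap1, 3, 10, 11, 12, 13, 14, 24, 26 and 27) and 17 ultra-high sulfur (Krtap4, 5, 9 and 17). For the 5 members of Krtap16, 28 and 31 no class was used. The cluster on chromosome 16 held 23 members, among them all 15 high glycine-tyrosine genes, and the cluster on chromosome 11 held 19. Chromosomes 7, 10 and 1 held 5, 3 and 1.

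The bases upstream of the start site are shown for 5 members whose values differed most in kind. Krtap8-1 (high glycine-tyrosine, chr16:89487953-89488202) and Krtap1-5 (high sulfur, chr11:99581017-99581266) had the largest differences that passed the test below. Krtap4-2 (ultra-high sulfur, chr11:99635085-99635334) and Krtap19-1 (high glycine-tyrosine, chr16:88869411-88869660) parted on the KO_Allo array. Krtap13 (high sulfur, chr16:88751629-88751878) stayed near its lowest level on every array. All 5 are on the minus strand of GRCm38.p6, the sequences are from RefSeq, and each is the 250 bases before the annotated start, written 5′ to 3′ on the strand of the gene. Capitals mark the TATA box letters (TATAAA), the LEF/TCF letters (CTTTGAA or the variant CTTTGAT) and the HOXC13 letters (TTTATNG) on either strand.
Krtap8-1: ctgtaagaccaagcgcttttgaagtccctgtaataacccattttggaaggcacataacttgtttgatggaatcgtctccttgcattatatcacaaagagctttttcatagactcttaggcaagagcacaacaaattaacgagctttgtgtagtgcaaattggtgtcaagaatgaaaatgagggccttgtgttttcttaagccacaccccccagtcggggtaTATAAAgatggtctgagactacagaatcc
Krtap1-5: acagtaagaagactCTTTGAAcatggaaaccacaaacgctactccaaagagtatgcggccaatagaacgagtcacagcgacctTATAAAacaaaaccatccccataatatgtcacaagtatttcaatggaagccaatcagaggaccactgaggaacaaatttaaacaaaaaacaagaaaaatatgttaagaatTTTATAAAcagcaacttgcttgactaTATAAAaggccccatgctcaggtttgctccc
Krtap4-2: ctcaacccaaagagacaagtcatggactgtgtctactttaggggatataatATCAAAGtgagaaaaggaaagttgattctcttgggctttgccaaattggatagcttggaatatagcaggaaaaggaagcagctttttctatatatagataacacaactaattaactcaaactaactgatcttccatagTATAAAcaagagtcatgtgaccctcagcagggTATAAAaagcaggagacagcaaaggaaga
Krtap19-1: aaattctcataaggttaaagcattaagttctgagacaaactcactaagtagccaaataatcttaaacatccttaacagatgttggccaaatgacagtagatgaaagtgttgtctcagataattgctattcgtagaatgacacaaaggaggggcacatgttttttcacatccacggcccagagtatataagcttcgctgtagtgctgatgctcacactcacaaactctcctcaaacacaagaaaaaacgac
Krtap13: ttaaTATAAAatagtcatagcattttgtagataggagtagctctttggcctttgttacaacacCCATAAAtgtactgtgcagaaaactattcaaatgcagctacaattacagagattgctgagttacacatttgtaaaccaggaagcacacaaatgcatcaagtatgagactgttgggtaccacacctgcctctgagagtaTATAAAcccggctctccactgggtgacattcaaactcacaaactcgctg

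A TATAAA lay 29 bases before the start of Krtap8-1, 31 before that of Krtap1-5, 29 before that of Krtap4-2 and 49 before that of Krtap13. None of the 4 motifs was in the Krtap19-1 stretch. TATAAA is the core of the TATA box, which places the start of transcription in many strongly regulated genes. RefSeq windows of 300 bases (250 before to 50 after the start) were at hand for 46 of the 51 members. TATAAA on either strand was in 39 of these 46 windows (84.8%), against 13.6% of all 32851 promoter windows. On the strand of the gene within 50 bases before the start it was in 31 members (67.4%), against 2.63% of all windows. The median GC content of the members' windows was 41.3%, against 52.7% for all windows, and TATAAA holds no G or C. CTTTGAA and CTTTGAT, letters bound by LEF/TCF factors, were in 13% and 6.52% of members' windows, against 5.14% and 3.73% of all. TTTATNG, a form of the HOXC13 motif, was in 15.2% against 10.9%. On the reverse strand TTTATNG can share bases with TATAAA. Krtap13, which stayed at log2 levels of 2.31 to 2.98, and the variable gene Krtap8-1 both held TATAAA, and the variable gene Krtap19-1 did not. The Krtap13 levels were far below that of the median gene. They may be a lack of signal and do not show steady expression. Only these exact letters were searched, and the Krtap19-1 stretch holds the near form TATATAAG, so a TATA box there is not excluded. A match of letters is a description of the window and shows no binding.

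Values are log2 expression values, so a difference of 1 is a 2-fold ratio, and the middle gene of all 22180 stood between 6.03 and 6.09 on every array. The median of the 51 Krtap genes was 7.03 on WT_CTRL, 4.49 on KO_CTRL, 8.31 on KO_CTRL-B and 6.80 on KO_Allo. On the IMQ arrays it was 4.22 on WT_IMQ, 4.16 on KO_IMQ, 5.51 on KO_IMQ_B and 4.40 on KO_IMQ_Allo. The Krtap genes were thus high on 3 of the 4 arrays without IMQ and low on KO_CTRL, which stood among the IMQ arrays. KO_CTRL-B held the highest level of 48 of the 51 members (94.1%), whereas it held the highest level of 13.4% of all genes. The exceptions were Krtap4-9 and Krtap4-13, highest on KO_Allo, and Krtap13, highest on KO_IMQ_Allo. The members' range over the 8 arrays ran from 0.61 log2 units in Krtap20-2 to 7.75 in Krtap8-1, with a median of 4.30. For 34 members the mean over the 8 arrays was not above that of the median gene, where the summary method compresses differences. The arrays come from whole skin, so fewer hair-forming cells and less Krtap RNA per cell cannot be told apart.

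**Figure D1:**
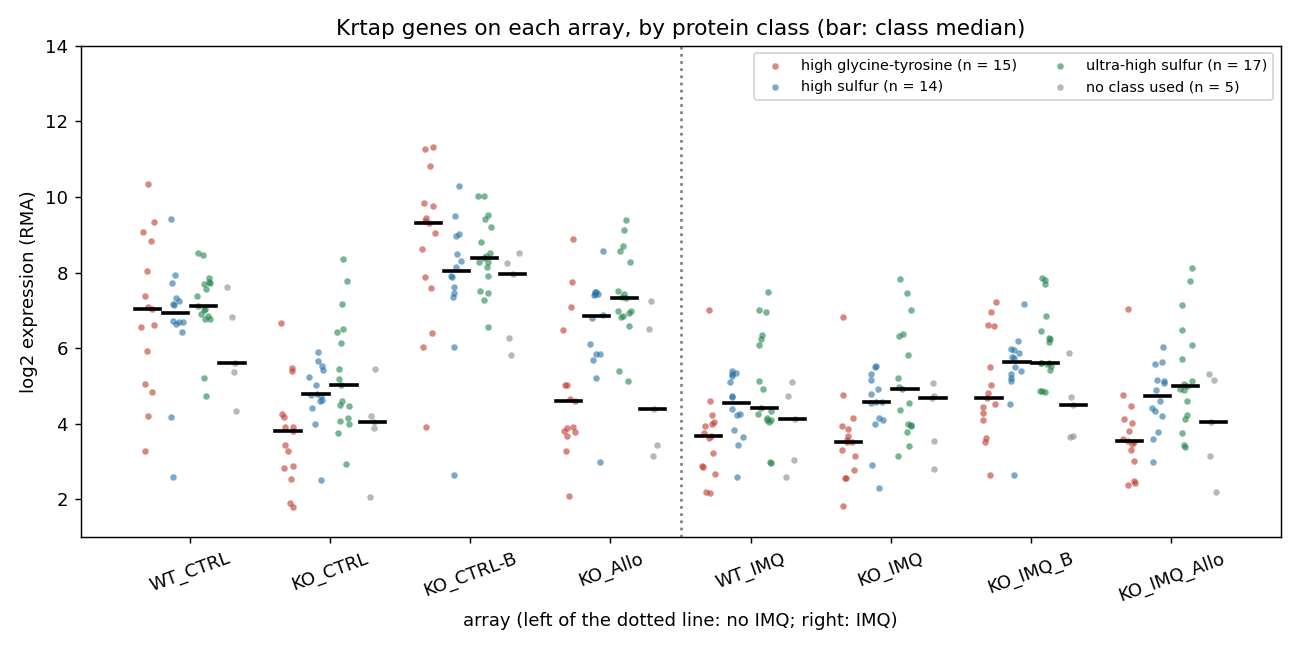
Log2 expression of the 51 Krtap genes (points) on each of the 8 arrays, coloured by protein class, with a bar at each class median; horizontal scatter within a class has no meaning. All classes are low on KO_CTRL and on WT_IMQ, KO_IMQ and KO_IMQ_Allo, and on KO_Allo the high glycine-tyrosine median (4.60) lies below the high sulfur (6.84) and ultra-high sulfur (7.33) medians.

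The receptor gene itself did not tell the genotypes apart. Il22ra1 read 8.23 on WT_CTRL and 8.64 on WT_IMQ, and 8.59 to 9.40 on the 6 KO arrays. The labels do not place the probe set relative to the altered part of the allele, so it checks no genotype. KO_CTRL, labelled as an array without IMQ, stood with the IMQ arrays for most Krtap genes, and no Krtap value checks that label. The hair shaft keratin median on KO_CTRL (5.71) also stood among those of the IMQ arrays (5.63 to 6.54). Tgm3 and Krt15, from lists described below, did not. Tgm3 read 6.08 on KO_CTRL, 7.98 to 8.93 on the other arrays without IMQ and 9.73 to 10.44 with IMQ. Krt15 read 10.94 on KO_CTRL, 9.96 to 10.89 on the others and 8.66 to 9.37 with IMQ. In the same lists, Krt14 and Krt1 on KO_CTRL also lay outside the range of the IMQ arrays. S100a3, Padi3, Dsg4, Vsig8, Hephl1, Liph, Krt10 and Krt2 lay inside that range, so these lists were mixed. The label was not tested. The KO plain pair and each comparison with KO_CTRL rest on that label.

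The effect of IMQ was taken over 4 pairs of arrays that share every label but IMQ: WT_IMQ with WT_CTRL, KO_IMQ with KO_CTRL, KO_IMQ_B with KO_CTRL-B, and KO_IMQ_Allo with KO_Allo. Krtap genes were lower on the IMQ arrays, by a median of -1.87 log2 units, against -0.01 over all genes. Nothing in the labels ties an array to its own animals, so p-values measure only the spread between these arrays. The 4 pairs also differ in genotype and alloferon, so that spread holds any difference of the IMQ effect between them. In limma with Benjamini-Hochberg adjustment over all genes, 10 of the 51 members fell (19.6%), where 1.19% of all genes fell, and no member rose, where 1.90% of all genes rose. These calls depended on the fit. With a trended robust prior 1 member was called, Krtap4-13, which had the smallest difference of the 10 (-0.71). With no level per pair 1 was called, Krtap24-1. No member was called without the WT pair or the KO B pair. None was called with the B arrays taken as second arrays of KO_CTRL and KO_IMQ. At an unadjusted p under 0.05, 43 members were lower, against 9.43% of all genes, and none was higher, against 9.37%. In all 4 pairs the IMQ array was the lower one for 34 members (66.7%), against 14.3% of all genes. Of the classes, 2 of 15 high glycine-tyrosine, 3 of 14 high sulfur, 3 of 17 ultra-high sulfur and 2 of the 5 unclassed members fell. Their medians were -1.99, -2.03, -1.73 and -1.87.

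Among the high glycine-tyrosine genes, whose small proteins are rich in aromatic and flexible residues, Krtap8-1 had the largest difference of the family. It read 10.33 on WT_CTRL and 4.04 on WT_IMQ, 5.48 on KO_CTRL and 3.57 on KO_IMQ, 11.33 on KO_CTRL-B and 7.22 on KO_IMQ_B, and 8.89 on KO_Allo and 4.46 on KO_IMQ_Allo. The IMQ array was the lower one in each pair, but KO_IMQ_B stayed above KO_CTRL, so the groups overlapped. Krtap8-1 fell by 4.18 ± 0.61 (SE, n = 4 pairs; limma adjusted p = 0.0268). Krtap7-1, the other high glycine-tyrosine gene that passed, read 9.08, 5.40, 9.77 and 7.75 on WT_CTRL, KO_CTRL, KO_CTRL-B and KO_Allo. It read 4.60, 4.77, 6.59 and 4.77 on WT_IMQ, KO_IMQ, KO_IMQ_B and KO_IMQ_Allo. KO_IMQ_B again exceeded KO_CTRL, and Krtap7-1 fell by 2.82 ± 0.54 (limma adjusted p = 0.0490).

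Krtap22-2 lay just outside the threshold, with a difference of -3.21 ± 0.63 and a limma adjusted p of 0.05005. It read 9.33, 4.16, 10.81 and 6.49 without IMQ and 4.22, 3.29, 6.62 and 3.82 with IMQ, in the order WT, KO, KO B and KO Allo. Krtap19-1 read 6.62, 2.83, 9.44 and 3.81 without IMQ and 2.19, 2.57, 4.43 and 2.48 with IMQ in that order. For both genes the WT and KO B pairs differed by more than 4 log2 units and the KO plain pair by less than 1. The difference of Krtap19-1 was -2.76 ± 0.78 (limma adjusted p = 0.120), that of Krtap21-1 -2.66 ± 0.69 (0.0974) and that of Krtap6-1 -2.56 ± 0.68 (0.102). Krtap19-4, the highest of the Krtap19 genes, read 8.83, 6.66, 11.28 and 7.09 without IMQ and 6.84 to 7.05 with IMQ. Its level on KO_CTRL was as low as on the IMQ arrays. Krtap20-2 stayed between 3.29 and 3.90 on all 8 arrays.

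Among the high sulfur genes, Krtap1-5 had the smallest adjusted p of the family. It read 7.94, 4.42, 9.50 and 6.80 on WT_CTRL, KO_CTRL, KO_CTRL-B and KO_Allo, and 3.42, 2.90, 5.76 and 3.58 on the matching IMQ arrays. All 4 pairs differed by more than 1.5 log2 units, and Krtap1-5 fell by 3.25 ± 0.43 (limma adjusted p = 0.0220). Its neighbour Krtap1-4 fell by 2.03 ± 0.36 (0.0386), and Krtap1-3 differed by -2.12 ± 0.45 (0.0612). Krtap24-1 read 7.74, 5.43, 8.48 and 7.39 without IMQ and 4.39, 4.58, 5.51 and 4.88 with IMQ. Its IMQ arrays lay below every other array except that KO_IMQ_B (5.51) was just above KO_CTRL (5.43). Krtap24-1 fell by 2.42 ± 0.38 (limma adjusted p = 0.0300).

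Several high sulfur genes stood just outside the threshold. Krtap13-1 differed by -2.45 ± 0.48 (limma adjusted p = 0.0502), Krtap26-1 by -1.59 ± 0.32 (0.0519), Krtap11-1 by -2.66 ± 0.54 (0.0529) and Krtap3-1 by -2.08 ± 0.43 (0.0575). Krtap14 differed by -2.03 ± 0.65 (0.158), Krtap10-4 by -1.09 ± 0.24 (0.0632) and Krtap27-1 by -1.04 ± 0.28 (0.102). Krtap13-1 and Krtap27-1 were the only members whose 4 IMQ arrays all lay below the 4 others, which is 2 of 51 where 5.04% of all genes did so. With KO_CTRL set aside, 34 members had this order, against 8.47% of all genes. Krtap12-1 ran the other way in the WT pair, at 4.17 on WT_CTRL and 5.33 on WT_IMQ, and over the 4 pairs it differed by 0.10 ± 0.28. Krtap13 stayed between 2.31 and 2.98 on all arrays.

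Among the ultra-high sulfur genes, which encode the most cysteine-rich proteins of the shaft, Krtap4-2 had the largest difference but a wide spread. It read 7.72, 2.93, 9.42 and 8.57 without IMQ and 2.96, 3.14, 6.23 and 3.44 with IMQ. The WT, KO B and KO Allo pairs each differed by more than 3 log2 units, and the KO plain pair by 0.21 the other way. The difference of Krtap4-2 was -3.22 ± 0.82 (limma adjusted p = 0.0916). Krtap4-16 fell by 2.63 ± 0.50 (limma adjusted p = 0.0479), and Krtap4-7 by 2.62 ± 0.43 (0.0329). Krtap4-13 fell by only 0.71 ± 0.14 (0.0485), and of the genes that passed it had the narrowest range: it read 7.86, 8.35, 8.80 and 9.12 without IMQ and 7.49, 7.83, 7.85 and 8.13 with IMQ. Other probe sets on the array name Krtap4-13 together with predicted copies, and they differed by -1.25 and -1.26, with no test. Krtap sequences within a subfamily are alike, so single members of a subfamily are uncertain.

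None of the other ultra-high sulfur genes passed. Their differences ran from -2.49 in Krtap4-1 to -0.68 in Krtap5-5, apart from Krtap4-2. Krtap5-1 differed by -1.26 ± 0.29 (limma adjusted p = 0.0714), Krtap9-1 by -1.55 ± 0.35 (0.0676) and Krtap17-1 by -1.03 ± 0.23 (0.0647). All 17 had an unadjusted p under 0.05 and a negative difference. Of the genes without a class, Krtap28-13 fell by 2.78 ± 0.52 (limma adjusted p = 0.0453) and Krtap16-1 by 1.87 ± 0.36 (0.0485). Krtap31-1 differed by -0.22 ± 0.37 (0.816), and Krtap31-2 by -0.24 ± 0.46 (0.835).

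**Figure D2:**
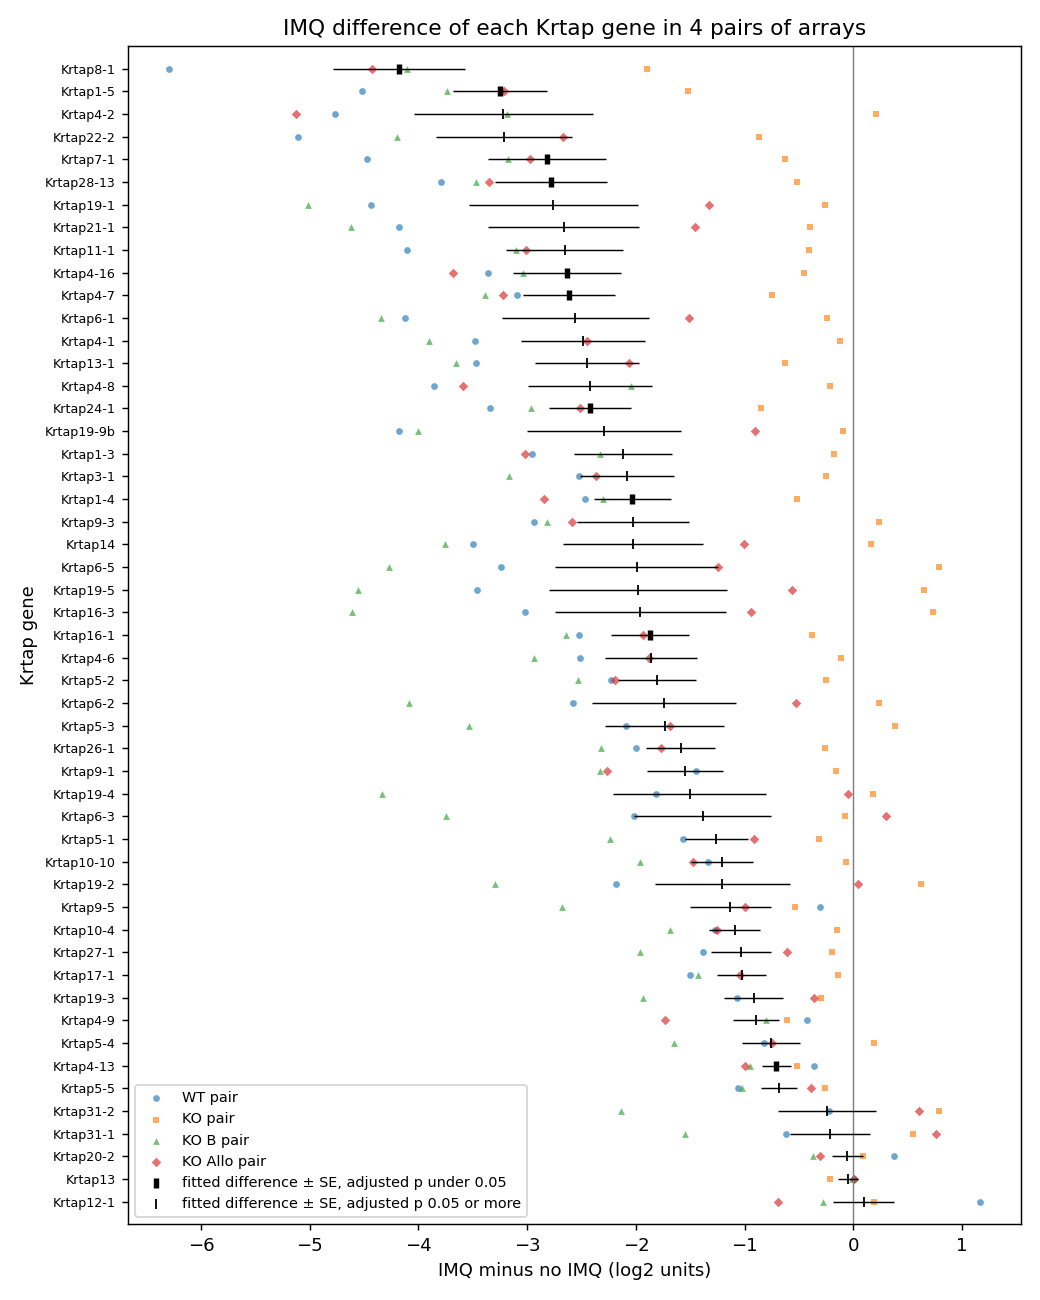
Difference between the IMQ array and its partner without IMQ, in log2 units, for each Krtap gene (vertical axis) in the WT, KO, KO B and KO Allo pairs (symbols), with the fitted difference and its standard error (black; heavy marks have an adjusted p under 0.05). The squares of the KO pair lie within 1 log2 unit of 0 for all members but Krtap8-1 and Krtap1-5, and for most members the other pairs lie further to the left.

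The size of the difference varied by pair. By 1 log2 unit or more, 42 of 51 members were lower on IMQ in the WT pair (82.4%, against 2.12% of all genes), 46 in the KO B pair (90.2%, against 1.29%) and 32 in the KO Allo pair (62.7%, against 0.938%). Krtap12-1 was the only member higher by 1 or more in the WT pair, against 2.50% of all genes. In the KO plain pair the count was 2, Krtap8-1 and Krtap1-5 (3.92%, against 2.22%). The median differences were -2.52 in the WT pair, -0.21 in the KO plain pair, -2.97 in the KO B pair and -1.47 in the KO Allo pair. The KO plain pair began low (KO_CTRL median 4.49) and ended at 4.16, beside 4.22 on WT_IMQ, 4.40 on KO_IMQ_Allo and 5.51 on KO_IMQ_B. These are single arrays, so the differences between pairs have no test. Without KO_CTRL or its partner, 25 members fell over the 3 pairs left (49.0%, against 0.622% of all genes), 9 of them among the 10, and the median was -2.44.

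Genotypes were compared in 1 limma fit with an IMQ effect for each. Over the 3 KO pairs no member was called, nor was any gene (0.00% in either direction). The smallest adjusted p of a member was 0.111, for Krtap8-1, and 34 members were lower at an unadjusted p under 0.05, against 6.57% of all genes. In the WT pair no member was called either (smallest limma adjusted p = 0.241), and 29 members were lower at an unadjusted p under 0.05, against 5.28% of all genes. Krtap12-1 was higher at that level, as were 5.53% of all genes. The difference of the effects, WT minus KO, was called for no member and no gene. Krtap8-1 had a difference of -2.82 ± 0.98 and Krtap12-1 one of 1.42 ± 0.37 (limma adjusted p = 0.983 for both). They were the only members with an unadjusted p under 0.05 there, near the 2.01% and 2.11% of all genes that were lower and higher. The WT effect rests on 1 pair whose spread is taken from the KO pairs.

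Among the arrays without IMQ, the 2 KO labels that carry no drug lay on opposite sides of the wild type. KO_CTRL was lower than WT_CTRL by 1 log2 unit or more for 41 members (80.4%, against 0.893% of all genes), with a median of -2.31. Krtap22-2 (-5.17), Krtap8-1 (-4.86) and Krtap4-2 (-4.80) differed most, and Krtap20-2, Krtap4-13 and Krtap12-1 were above the wild type by 0.14 to 0.56. The probe sets that name Krtap4-13 with predicted copies went the other way, at 4.93 and 5.93 on KO_CTRL against 6.05 and 6.56 on WT_CTRL. KO_CTRL-B was higher than WT_CTRL for all 51 members and by 1 or more for 34 (66.7%, against 0.532% of all genes), with a median of 1.40. Krtap19-1 stood highest at 2.82, then Krtap9-5 at 2.79. Between KO_CTRL and KO_CTRL-B, 47 members differed by 1 or more, all lower on KO_CTRL (92.2%, against 1.46% of all genes), with a median of -3.80. With the same genotype in the labels, these 2 arrays were farther apart in Krtap level than either was from WT_CTRL. No direction of the knockout on Krtap genes can be read from them.

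On KO_Allo the high glycine-tyrosine genes stood apart from the sulfur-rich classes. Against WT_CTRL, 13 of 15 high glycine-tyrosine genes were lower by 1 or more, 3 of 14 high sulfur genes, none of 17 ultra-high sulfur genes and 1 of the 5 without a class. In all this was 17 members (33.3%, against 1.09% of all genes). The class medians were -2.11, -0.07 and 0.14 in that order. Against WT_CTRL they were -3.68, -2.16 and -1.91 on KO_CTRL, and 1.97, 1.08 and 1.39 on KO_CTRL-B. The high glycine-tyrosine median was thus the farthest from 0 on those arrays too. On KO_Allo, Krtap19-9b was lowest against WT_CTRL at -3.13, then Krtap6-1 at -3.01 and Krtap22-2 at -2.84. At the other end 3 members were higher by 1 or more (5.88%, against 1.17% of all genes), Krtap12-1 by 1.68, Krtap4-13 by 1.27 and Krtap10-10 by 1.05.

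The classes were also set against the other KO arrays. Relative to KO_CTRL-B, 37 members were lower on KO_Allo by 1 or more (72.5%, against 0.681% of all genes), and the medians were -4.27 for high glycine-tyrosine, -1.22 for high sulfur and -1.06 for ultra-high sulfur genes. Relative to KO_CTRL, 34 members were higher on KO_Allo by 1 or more (66.7%, against 1.60% of all genes), with class medians of 0.98, 1.64 and 1.99 in the same order, so the classes lay closer together in that comparison. These comparisons share arrays and are not independent of each other. For the 47 members that differed by 1 or more between KO_CTRL and KO_CTRL-B, the place of KO_Allo on that log2 span was a median of 16.2% for high glycine-tyrosine, 61.2% for high sulfur and 60.4% for ultra-high sulfur genes. WT_CTRL stood at 62.3%, 67.9% and 63.9% of the same span, so on that array the classes were close together. KO_IMQ_B, at 25.8%, 23.9% and 19.2%, showed no such split either.

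The high glycine-tyrosine genes all lie in the chromosome 16 cluster, so class and position overlapped. In genomic order, the stretch from Krtap14 to Krtap6-2 (15 members, chosen after its values were seen) had a median of -2.23 on KO_Allo against WT_CTRL, with 13 members lower by 1 or more. Its exceptions were Krtap19-3 (-0.94) and Krtap20-2 (0.49). The stretch also held the high sulfur gene Krtap14 (-2.12) and the unclassed gene Krtap16-3 (-2.48), which differed as much as their glycine-tyrosine neighbours. Because Krtap16-3 was given no class, it cannot part position from class. The other 8 members on chromosome 16 had a median of -0.89, and among them the high glycine-tyrosine genes Krtap8-1 (-1.45) and Krtap7-1 (-1.33), at the far end, differed less than most of their class. On chromosome 11 the median of the 19 members was 0.14, with only Krtap1-5 (-1.14) lower by 1 or more. On KO_CTRL-B against WT_CTRL the median of the stretch was 2.01. That of the other chromosome 16 members was 0.75 and that of chromosome 11 was 1.40, so the stretch also differed most there. Position and class cannot be told apart for most of these genes.

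**Figure D3:**
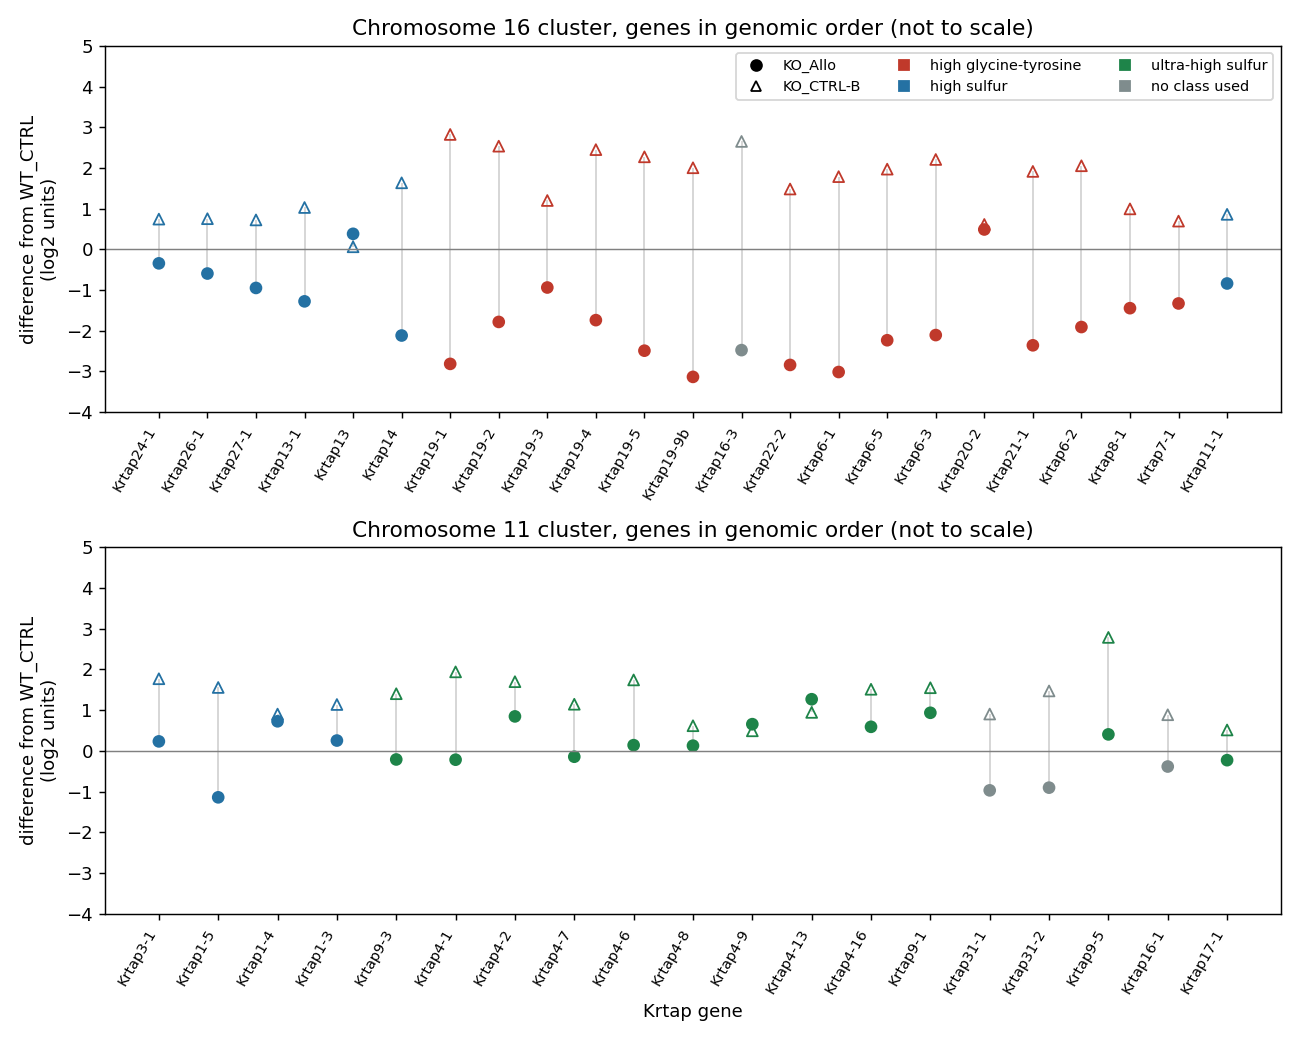
Difference from WT_CTRL in log2 units on KO_Allo (filled circles) and KO_CTRL-B (open triangles) for the Krtap genes of chromosome 16 (top) and chromosome 11 (bottom) in genomic order, not to scale, coloured by protein class. On chromosome 16 the circles fall below -1 from Krtap14 to Krtap6-2 with the exceptions of Krtap19-3 and Krtap20-2, and on chromosome 11 they lie near or above 0 for most genes.

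The IMQ arrays differed less. KO_IMQ and WT_IMQ were within 1 log2 unit of each other for all 51 members (0.582% of all genes were lower and 0.712% higher by that much), with a median of 0.06. KO_IMQ_B was higher than WT_IMQ by 1 or more for 25 members (49.0%, against 0.681% of all genes), with a median of 0.94. Against KO_IMQ it was higher for 21 members (41.2%, against 0.622% of all genes). KO_IMQ_Allo was within 1 log2 unit of KO_IMQ for all members (median 0.11), where 0.807% of all genes were lower and 0.676% higher by that much. It was lower than KO_IMQ_B for 18 members (35.3%, against 0.771% of all genes). By the median of the members, both arrays of the letter B were the highest of their kind. The labels do not say which array is the vehicle partner of KO_IMQ_Allo, and the 2 candidates gave different counts.

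The hair shaft keratins, which build the filaments that the Krtap proteins join, went with the Krtap genes. Of 15 measured, 8 fell over the 4 pairs and none rose, with a median of -1.73. This and the list counts that follow stand against the 1.19% of all genes that fell and the 1.90% that rose. Krt33a fell by 2.90 ± 0.46 (limma adjusted p = 0.0315) and Krt31 by 2.54 ± 0.34 (0.0227), while Krt87 differed by -2.75 ± 0.54 (0.0503). On KO_Allo against WT_CTRL their median was -0.72, between those of the high glycine-tyrosine and high sulfur Krtap genes. In that comparison 5 of the 15 hair shaft keratins were lower by 1 or more, against 1.09% of all genes. Of 7 genes that act on or join the shaft proteins, 3 fell. These were S100a3 (-2.83 ± 0.45, limma adjusted p = 0.0308), a calcium-binding protein of the cuticle, Padi3 (-2.30 ± 0.35, 0.0294), which deiminates it, and the desmosomal cadherin Dsg4 (-2.70 ± 0.26, 0.0131). Tgm3, a transglutaminase that the upper epidermis also makes, differed by 2.06 ± 0.47 (0.0700).

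Of 10 transcription factors of the hair matrix and shaft, 6 fell and none rose, with a median of -0.67. Lef1, the nuclear partner of Wnt signals, fell by 1.78 ± 0.20 (limma adjusted p = 0.0157), Hoxc13, which controls hair keratin genes, by 1.54 ± 0.19 (0.0183), and Msx2 by 1.22 ± 0.20 (0.0339). Lef1, Hoxc13 and Msx2 were also lower on KO_CTRL than on WT_CTRL, Hoxc13 reading 6.74 against 8.26. Hoxc13 on KO_Allo (7.71) was between them. Of the other factors that fell, Dlx3 was lower on KO_CTRL too (-0.96), while Gata3 (-0.04) and Vdr (-0.01) stood level with WT_CTRL.

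The inner root sheath and companion layer, which surround the shaft but make no Krtap proteins, differed from the Krtap genes in the size of the pair differences. Of 10 genes 8 fell over the 4 pairs, with a median of -2.81, led by Tchh (-3.64 ± 0.47, limma adjusted p = 0.0207), Krt71 (-3.48 ± 0.49, 0.0250) and Krt27 (-3.42 ± 0.34, 0.0133). Their medians were -3.89 in the WT pair, -3.16 in the KO plain pair, -1.82 in the KO B pair and -2.89 in the KO Allo pair, beside Krtap medians of -2.52, -0.21, -2.97 and -1.47. They were thus lower than the Krtap medians in 3 pairs and higher in the KO B pair. In the KO plain pair the sheath genes ran from -5.07 in Krt71 to -0.11 in Krt74. Their median level was 10.17 on WT_CTRL, 8.47 on KO_CTRL and 5.09 on KO_IMQ, so on KO_CTRL it stood above the IMQ arrays other than KO_IMQ_B (8.81). The corresponding Krtap medians on KO_CTRL and KO_IMQ were 4.49 and 4.16. The Krtap median on KO_CTRL was thus already below the middle gene's 6.06, where the method compresses differences. A further fall in the KO plain pair may not show fully, so its size cannot be compared evenly between the lists. Among sheath genes low on KO_CTRL, Krt74 (5.25) and Krt72 (6.45) differed by -0.11 and -0.69 in that pair, and Krt26 (5.66) by -2.58. On KO_Allo against WT_CTRL the sheath genes had a median of -0.47, and none was lower by 1 or more.

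Markers of other cells were set beside these values. Of 7 melanocyte genes 5 fell, with a median of -1.27, among them Tyr (-1.60 ± 0.24, limma adjusted p = 0.0268). Against WT_CTRL the median of their differences was -1.59 on KO_CTRL, 0.25 on KO_CTRL-B and -0.95 on KO_Allo, where 2 of 7 were lower by 1 or more. Of 5 epidermal keratins 1 fell, Krt15 (-1.56 ± 0.25, 0.0305), and Krt14 differed by 1.15 ± 0.25 (0.0649). The median level of the epidermal keratins was 10.96 to 12.74 on every array, while Krt2 among them read 4.37 to 5.33. The keratinocyte share of the samples was not tested. Sebaceous gland genes (3 of 10 fell) and adipocyte genes (1 of 8 fell) had medians of -0.48 and -0.74. On KO_Allo against WT_CTRL the adipocyte genes had a median of -1.64, with 7 of 8 lower by 1 or more, and the sebaceous genes one of 0.74. Between KO_CTRL and KO_CTRL-B the adipocyte median was 0.96. The part of adipocyte RNA in the Krtap values was not tested.

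Skeletal muscle genes followed another order of arrays. The median of 15 was 11.43 on WT_CTRL and 11.43 on KO_CTRL, and 8.31 to 9.43 on the other 6, and 3 of them fell over the 4 pairs. Krtap levels differed widely between WT_CTRL and KO_CTRL, where this median was equal. Myh4 read 12.60 on WT_CTRL, 12.88 on KO_CTRL, 9.43 on KO_CTRL-B and 5.85 on KO_Allo. What the muscle share of the samples added to the Krtap values was not tested.

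**Figure D4:**
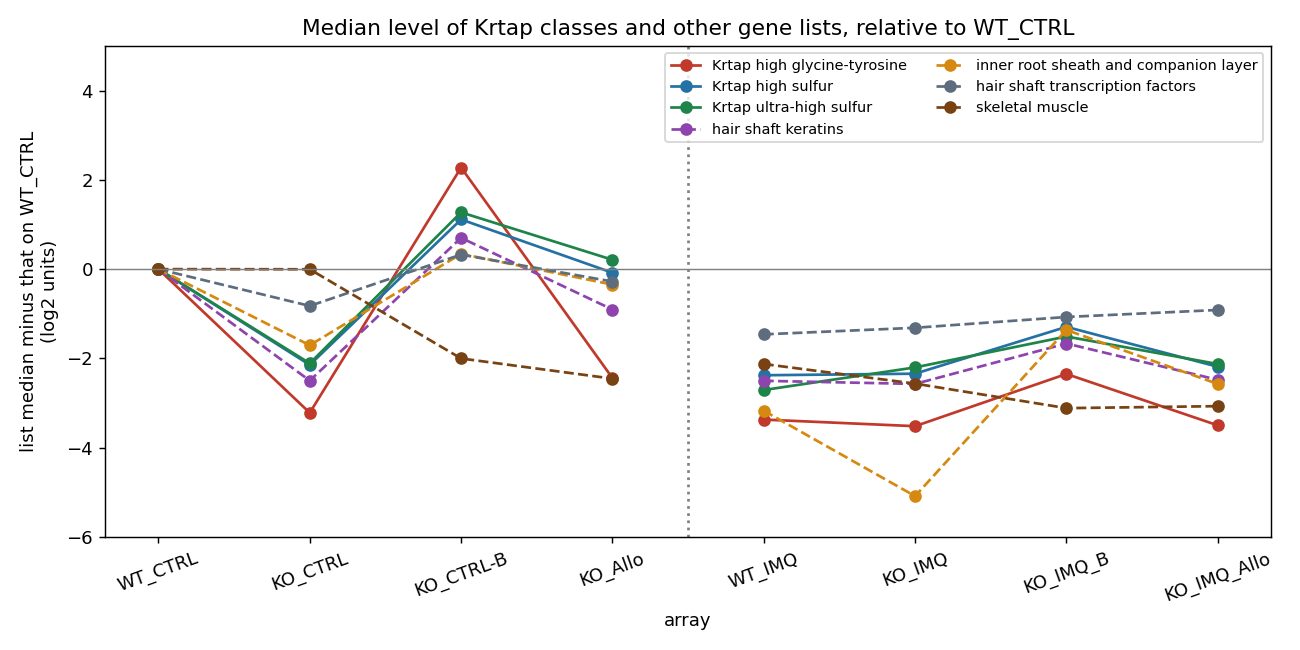
Median level of 3 Krtap classes (solid) and of 4 other gene lists (dashed) on each array minus that on WT_CTRL, in log2 units; lines only join the points of a list, and the dotted line parts arrays without IMQ (left) from arrays with IMQ (right). The medians of the Krtap classes and of the hair keratins are low on KO_CTRL and high on KO_CTRL-B, on KO_Allo the high glycine-tyrosine class is the lowest of the Krtap classes, and the muscle list is level with WT_CTRL on KO_CTRL and lower on the other arrays.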

How the data were processed

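The deposited values are log2 expression values of 41345 probe sets on each of 8 arrays. Per the labels and the submitters' processing notes, the authors ran RMA (robust multi-array average) with Affymetrix Power Tools, and R 3.3.2 is listed with no role given. RMA subtracts background, gives every array the same distribution and combines each set's probes, which compresses differences of dim genes and removes changes shared by most genes. The labelling used 100 ng of RNA per sample. Arrays give no counts or depth, and their number limits the precision.

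Probe sets with 1 symbol in the platform annotation (23521) were kept, and a gene with several probe sets took the one with the highest mean, which gave 22180 genes. No dim gene was removed. limma 3.58.1 in R 4.3.3 (lmFit, eBayes) was fitted on all genes with a level per pair of arrays. It had 1 IMQ effect (3 residual degrees of freedom) or 1 effect per genotype (2 residual degrees of freedom). Genes were called at a Benjamini-Hochberg adjusted p under 0.05. Single arrays were compared without a test, past 1 log2 unit. The fit was tested on simulated data.

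Members and gene lists were chosen with earlier results of these data known. Protein classes were to come from protein composition, but no protein table was used here, and they were assigned by subfamily number from general knowledge after values had been seen. Named members are the brightest of each subfamily, the 10 with the largest IMQ difference and those that differ in sign. Others are named beside a count they belong to. Of each other list, up to 3 genes with the largest difference were named, with others for single values. Gene order and promoters are from RefSeq (GRCm38.p6). Alternatives were a filter on dim genes, probe set averaging, a trended robust prior, median centring, other pairings and leaving out each array.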

Additional observations from a re-analysis of the deposited data

Results flagged for a closer look

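Among 28 named members, 84 groups of 4 values were tested for 1 value far from the other 3, and 7 stood out, where chance gives about 1 in 20. The genes share the same 8 arrays and move together, so these groups are not independent and the count cannot be read against that rate. In 5 of the 7 the value was that of KO_IMQ_B, higher than the other IMQ arrays. Krtap11-1 read 7.18 there (nearest 5.57), Krtap19-1 4.43 (2.57) and Krtap4-16 6.17 (4.60). Krtap4-2 read 6.23 (3.44) and Krtap7-1 6.59 (4.77). Krtap31-1 read 5.15 on KO_IMQ_Allo, above the nearest IMQ array at 4.74. In Krtap28-13 the IMQ difference of the KO plain pair was -0.52, while the nearest of the other pairs was at -3.36.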

How the results depend on the processing

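Over the 4 pairs the count of members that fell was 10. It was 11 with arrays centred on their median, 11 of the 17 members tested with genes above the median level only, and 10 with averaged probe sets. It was 1 with a trended robust prior (1.96% of members, near the 1.33% of all genes that fell there), 1 with no level per pair (0.857% of all genes) and 0 where the B arrays were taken as second arrays of KO_CTRL and KO_IMQ (0.343% of all genes). Leaving out 1 array, which removes its pair, gave 0 to 25: 0 without either array of the WT pair or of the KO B pair, 25 with either array of the KO plain pair left out (0.622% of all genes), and 5 with either of the KO Allo pair left out (2.17% of all genes). Of the 10, the fits kept 9 with KO_CTRL left out, 4 with KO_Allo left out and 5 with the filter on dim genes, where the other 5 were not tested. Over the KO pairs the count was 0 in the full fit and 0 to 16 with 1 array left out, and in the WT pair 0 and 0 to 9. The higher counts, 16 and 9, came without KO_CTRL or KO_IMQ. The difference of the effects was called for no member in any fit. None of the 10 that fell, and none of the 10 with the largest difference, changed sign in any fit over the 4 pairs that tested it; the filter on dim genes left some of them untested. The median over the 4 pairs ran from -2.44 without the KO plain pair to -1.34 without the KO B pair. The WT effect has no value without WT_CTRL or WT_IMQ. The fit already pairs the arrays by label, and no replicate block was added to it because the labels carry no replicate numbers. With 1 array per label, a difference between single arrays cannot be set against a spread. For 34 members the mean lay at or below the middle gene's level, where the method compresses differences. Members with a low mean could still range widely, as Krtap19-1 did (mean 4.29, range 7.26 log2 units).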

Other observations

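The 10 Krtap probe sets that name several genes each were lower on the IMQ arrays on average over the 4 pairs, by -1.25 to -3.01 log2 units, with no test. The probe set shared by Krtap6-1 and its predicted copies had the value of -3.01, that shared by Krtap15 and a Riken gene -2.40, and those shared by Krtap3-2 and Krtap3-3 -2.14 and -1.83. The 3 probe sets shared by Krtap2-4 and predicted copies had -1.73, -1.47 and -2.06. The probe set of Krtap10-4 with many predicted copies had -1.97, against -1.09 for the probe set of Krtap10-4 alone. The second probe set of Krtap5-1 had -1.99 against -1.26 for the first, and both read highest on KO_CTRL-B (10.02 and 10.04).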
